A study of Mus musculus with 28 samples.

Results

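Macrophages sorted from the kidneys of mice lacking both Fcgr2b and Rhbdf2 were compared with macrophages sorted from mice lacking Fcgr2b alone. Members were chosen by the genotype label, which gave 3 double-mutant libraries (FcR2b-/- Rhbdf2-/-) and 3 Fcgr2b-/- libraries (FcR2b-/-), 6 of the 12 sorted macrophage libraries and of the 28 libraries in the series. The other macrophage libraries were 3 from wild-type and 3 from Rhbdf2-/- mice, and 16 libraries came from whole kidney. All animals were female littermates on the C57BL/6 background, 7 to 9 months old, and both groups compared here lack Fcgr2b. The alleles are described as knockouts of the whole animal, and the sources used here do not state which exons were removed. Kidneys were digested with collagenase and enriched on Percoll, and cells were gated as CD45+, high for F4/80, CD11b+, Ly6G- and Ly6C-. RNA was amplified with SMART-Seq v4 and read as single reads on a HiSeq. Titles of the double-mutant libraries name the Rhbdf2 knockout only, whereas their genotype label and description give both genes, and these were followed. Below, values of Fcgr2b-/- stand before those of double mutants, the 3 Fcgr2b-/- values always in the order FcR2bko_847, FcR2bko_595, FcR2bko_875 and the 3 double-mutant values in the order iR2ko_579, iR2ko_823, iR2ko_592.

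Fcgr2b encodes the inhibitory receptor for IgG, which restrains B cells and macrophages that meet immune complexes, and its loss leads to lupus-like disease with nephritis on this background. Rhbdf2 encodes iRhom2, a rhomboid relative without protease activity that escorts ADAM17 to the surface of myeloid cells, where ADAM17 sheds TNF, TNF receptors and ligands of the EGF receptor. Kidney macrophages clear immune complexes and dying cells, and in injured tissue they can take on an inflammatory, a lipid-handling or a repair programme. The comparison addressed which transcripts differ in these cells when iRhom2 is absent in mice that already lack the inhibitory Fc receptor.

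Values are CPM, read counts over a whole gene scaled to the depth of the library, and differences are log2 of the double mutant over Fcgr2b-/- after 1 was added to each CPM, with the limma standard error (SE) and n = 3 libraries per group. A gene was called, and is said to have risen or fallen, at a Benjamini-Hochberg adjusted p below 0.05 over all 10523 listed genes. The 12 macrophage libraries held 30852099 to 34871519 reads in listed genes, and the 6 compared held 32949081 to 34357259. Because these are bulk samples, fewer cells of a type and less RNA per cell cannot be told apart. Whether each library came from its own mouse is not stated in the labels, so p-values reflect only how these samples vary, which can be technical in part.

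The gate was checked against its markers. Emr1, which encodes F4/80, was at 2139, 1605 and 2487 CPM in Fcgr2b-/- and 3117, 3143 and 4246 in double-mutant libraries (difference 0.76 ± 0.20, limma adjusted p = 0.0149). Ptprc, which encodes CD45, was at 1184, 894 and 674 against 1415, 1454 and 2016 CPM (0.85 ± 0.20, limma adjusted p = 0.00839). Itgam, which encodes CD11b, was at 1046, 1150.5 and 1442 against 721, 443 and 706 CPM (-0.98 ± 0.28, limma adjusted p = 0.0219). The double mutants thus lay above Fcgr2b-/- for the first 2 markers and below it for the third, without overlap. The Itgam call was lost without FcR2bko_595 (limma adjusted p = 0.0501), without FcR2bko_875 (0.0832) and without iR2ko_823 (0.0848). The macrophage genes Csf1r, the receptor for CSF-1, and C1qa, a chain of complement C1q, overlapped between the groups, at 3093, 2821 and 3423 against 2301, 2809 and 3263 CPM and 3132, 3117 and 3613 against 3119, 3327 and 3681 CPM. Ly6c1 was low, at 2.67 to 6.51 CPM in the Fcgr2b-/- set and 0.986 to 4.37 CPM among double mutants, and was not called. Ly6g and Ly6c2 were not analysed here. Of the 22 measured genes on a list of resident kidney macrophage genes, 5 rose (3 without FcR2bko_595 or iR2ko_592) and 5 fell (2 without FcR2bko_875, 3 without FcR2bko_595 or iR2ko_823), and each had reads in every library. Over all genes 15.8% were higher and 13.8% lower.

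The targeted genes do not check the labels, since reads of both were present throughout. Rhbdf2 (chr11:116598165-116627019 in mm10, the build of all gene positions here) was at 43.3, 30.7 and 25.2 CPM in Fcgr2b-/- and 26.6, 21.6 and 18.1 in double-mutant libraries, a difference of -0.54 ± 0.21 that did not pass (limma adjusted p = 0.0743). The highest double mutant lay above the lowest Fcgr2b-/- library, and the difference passed without FcR2bko_875 (-0.72, limma adjusted p = 0.0378) or without iR2ko_579 (-0.68, 0.0475), with array weights (-0.56, 0.0388) and with CPM rescaled to the listed genes (-0.64, 0.0476). Without FcR2bko_847 it was -0.34 (0.254). Fcgr2b itself (chr1:170960558-170976547), deleted in both groups by label, was at 287, 256 and 382 against 455, 479 and 549.9 CPM, and it rose in the double mutant by 0.70 ± 0.16 (limma adjusted p = 0.00789) with no overlap.

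A pair of genes near Rhbdf2 differed more clearly between genotypes. St6galnac1, a sialyltransferase gene at chr11:116765025-116775507, was at 30.1, 29.5 and 32.7 CPM in the 3 Rhbdf2-/- and at no reads, 0.113 CPM and no reads in the 3 wild-type libraries. It was at 0.0586, 3.14 and 1.93 CPM in Fcgr2b-/- and 7.33, 12.1 and 9.32 in double-mutant libraries (2.15 ± 0.39, limma adjusted p = 0.00206). Double mutants thus lay between the Rhbdf2-/- and the Fcgr2b-/- libraries, and FcR2bko_595 and FcR2bko_875 lay above every wild-type library. These values do not settle whether every genotype label holds, and the contrast is therefore one between libraries as labelled. Gm11735, a transcript at chr11:116739062-116749833, was at 5.05, 5.81 and 6.55 CPM in Rhbdf2-/- libraries, and the double mutants, at 2, 3.01 and 2.67 CPM, again lay below them. In Fcgr2b-/- libraries Gm11735 had no reads in FcR2bko_847 and was at 0.844 and 0.755 CPM in the others. Both genes were picked after their values were seen, because they were the only 2 called between Rhbdf2-/- and wild-type macrophages.

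Of 10523 genes, 3113 were called (29.6%), 1663 higher in the double mutant (15.8%) and 1450 lower (13.8%), and the median difference over all genes was 0.035. At an unadjusted limma p below 0.05 there were 4294 genes, and the values of 4388 genes (41.7%) did not overlap between the groups. The largest changes were mostly falls, with 20 called genes below -3 against 8 above 3 and 110 below -2 against 70 above 2, whereas past 1 there were 582 rises against 473 falls. The share of calls that were rises was 53.4% with the authors' scaling. It was 39.9% (1243 rises, 1872 falls) with CPM rescaled to the listed genes, which shifted the median by -0.097, and 44.6% with a scaling by the median of ratios, which shifted it by -0.062. Calls on small differences therefore depend on the scaling. The shares of 15.8% higher and 13.8% lower are the background for the counts of every list below. Where a list below gave 0 calls in a direction, the authors' deposited table, limma voom and an unadjusted limma p below 0.05 gave 0 as well. The exceptions were the phagocyte NADPH oxidase list, whose counts stand beside it, and the iRhom list, with 2 genes lower at an unadjusted p and 1 by voom.

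**Figure D1:**
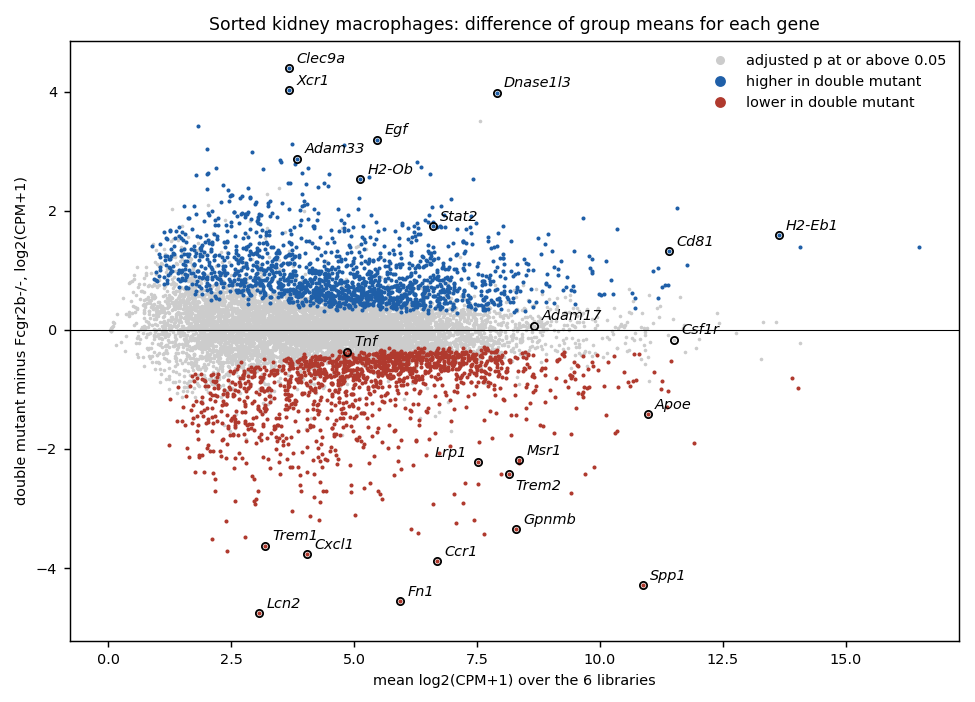
Each point is 1 of 10523 genes, with its mean log2(CPM+1) over the 6 compared libraries on the horizontal axis and the double-mutant minus Fcgr2b-/- log2 difference on the vertical axis. Coloured points are the 1663 genes called higher and 1450 called lower, and the deepest falls, such as Lcn2 at -4.76, go further from 0 than the rises, which end with Clec9a at 4.40.

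The largest fall was in Lcn2 (chr2:32384633-32387797), which encodes neutrophil gelatinase-associated lipocalin, a protein that binds bacterial siderophores and is made by injured tubules and activated myeloid cells. It was at 41.8, 52.2 and 36.1 CPM in Fcgr2b-/- libraries and at 2.27 CPM, 0.257 CPM and no reads in double mutants, a difference of -4.76 ± 0.45 (limma adjusted p = 8.36e-05). Every Fcgr2b-/- library lay far above every double mutant. Fn1 (chr1:71585520-71653200), the matrix protein fibronectin, was at 324, 206 and 389 against 69.5, 9.42 and 1.74 CPM (-4.56 ± 0.83, limma adjusted p = 0.00204), and the spread among double mutants was wide, with iR2ko_579 highest. Spp1 (chr5:104435118-104441050), which encodes osteopontin, a secreted ligand of integrins and CD44, was at 7858, 7837 and 9384 against 766, 572 and 174 CPM, means of 8359.6 ± 887 and 504 ± 302 (SD, n = 3). It fell by 4.29 ± 0.54 on the log2 scale (limma adjusted p = 0.00031), and the groups were far apart.

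Receptors, enzymes and secreted proteins of several kinds were among the remaining large falls. Ccr1, a receptor for CCL3 and CCL5 on monocytes and macrophages, was at 244, 411 and 615 against 59.1, 34.6 and 8.04 CPM (-3.88 ± 0.58), with double mutants below Fcgr2b-/- in every library. Trem1, a receptor that amplifies Toll-like receptor signals, was at 25.1, 41.5 and 28.7 against 1.2, 2.39 and 1.35 CPM (-3.63 ± 0.28, limma adjusted p = 3.14e-05), with little spread within either group. Cd38, an enzyme that consumes NAD, was at 351.4, 638 and 1250.2 against 96.1, 86 and 25.5 CPM (-3.43 ± 0.52). Cd38 and Ccr1 shared an order, since in both FcR2bko_875 was the highest and iR2ko_592 the lowest of the 6. Adam8, a metalloprotease of activated leukocytes, was at 291, 439 and 558 against 83.6, 57.7 and 16.1 CPM (-3.24 ± 0.53). Arg1, the arginase of alternatively activated macrophages, changed by -3.72 ± 0.37, the matrix protein gene Ecm1 by -3.42 ± 0.49 and the fibrinogen chain Fga by -3.22 ± 0.48. The acute-phase gene Saa3 differed by -3.48 ± 0.69, but its call was lost with limma voom on recovered reads (adjusted p = 0.191).

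**Figure D2:**
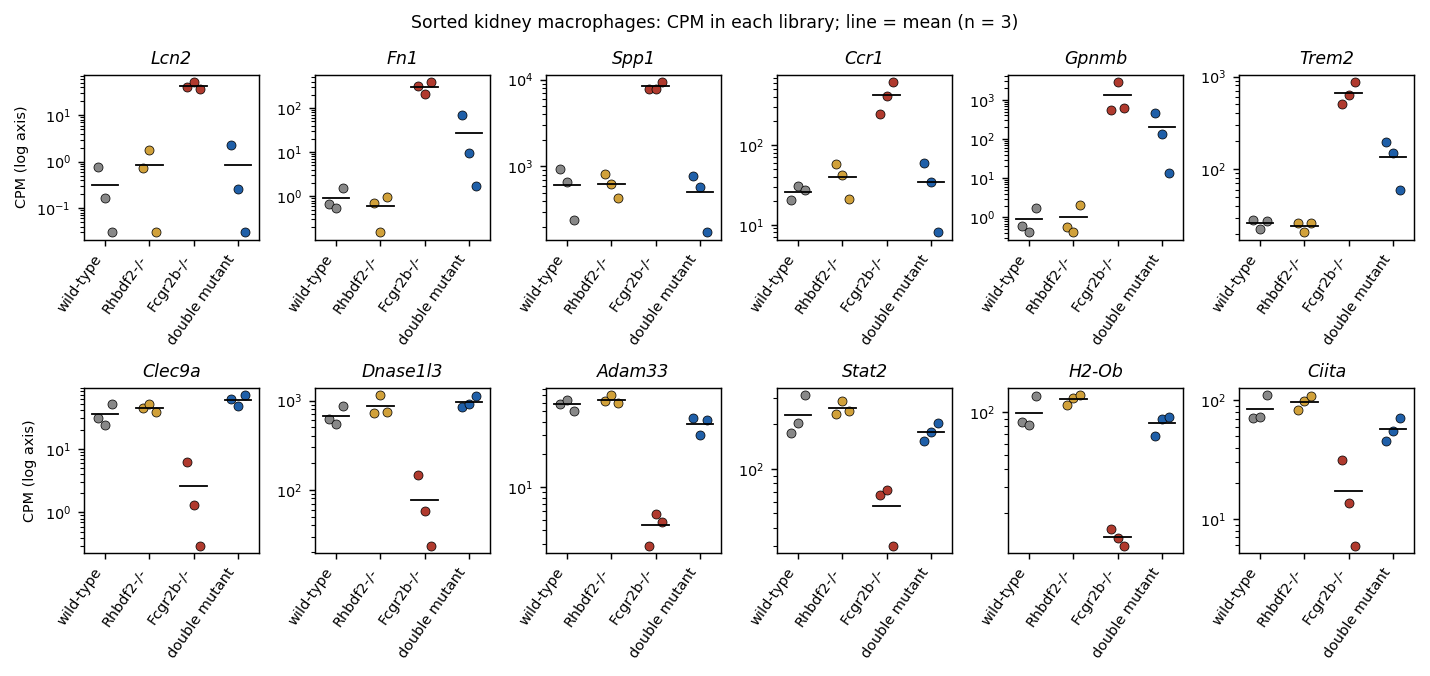
CPM on a log axis for 12 genes in each of the 12 macrophage libraries, with 1 point per library, a horizontal line at the mean of each genotype and 3 libraries per genotype. In Lcn2, Fn1, Spp1, Ccr1, Gpnmb and Trem2 double mutants lie below Fcgr2b-/- libraries, and in Clec9a, Dnase1l3, Adam33, Stat2, H2-Ob and Ciita they lie above them.

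Genes of lipid-associated macrophages, a state described in fat, atheroma and injured organs, fell as a group. Of 29 measured members, 21 fell and 1, the sterol exporter Abcg1 (0.59), rose (its call was lost without FcR2bko_847, FcR2bko_875 or iR2ko_823), with a median difference of -1.42 against 0.035 over all genes. Trem2 (chr17:48346401-48354147), the lipid-sensing receptor that drives this state, was at 511, 629 and 871 CPM in Fcgr2b-/- and 199, 148 and 60 in double-mutant libraries (-2.42 ± 0.34, limma adjusted p = 0.000569), with no overlap. Apoe, the apolipoprotein that carries cholesterol out of macrophages, was at 2029.6, 3631 and 4858 against 1351, 1139 and 1218 CPM (-1.42 ± 0.26, limma adjusted p = 0.00213). Its Fcgr2b-/- values spread more than its double-mutant values. Igf1, a growth factor made by tissue macrophages, was at 576, 597 and 660.3 against 197, 195 and 259 CPM (-1.50 ± 0.16, limma adjusted p = 0.000166). Cd63, a membrane protein of late endosomes, fell by 1.12 ± 0.14. Summed over the list, the level was 28519 to 32719 CPM in Fcgr2b-/- and 11665 to 13148 CPM in double-mutant libraries.

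The call of Gpnmb, a glycoprotein of lipid-laden macrophages (chr6:49036518-49058182), and the size of the fall in Fabp5, a fatty acid carrier, depended on single libraries. Gpnmb was at 565, 2850.5 and 626 against 475, 139 and 13.5 CPM (-3.34 ± 0.99, limma adjusted p = 0.0244), so FcR2bko_595 stood above the other Fcgr2b-/- libraries and iR2ko_579 came close to them. Its call was lost without FcR2bko_595 (-2.59, limma adjusted p = 0.1), without iR2ko_592 (-1.96, 0.0659), with the 2 groups fitted alone (0.0773) and in the authors' deposited table (0.0877). Fabp5 was at 157, 345 and 214 against 96.3, 26 and 3.23 CPM (-3.35 ± 0.80). Without iR2ko_592 its difference was -2.15 and still called (limma adjusted p = 0.00915).

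Promoters of several lists were searched for a motif set for each list. Of these, 5 are printed here to show what such a window holds beside the expression change of its gene. Sequences are the 250 bases before a RefSeq start in GRCm38.p6, on the gene's strand, with motif matches on either strand in capitals. A gene with several starts counted as a match if any of its windows held the motif, so promoter counts are counts of genes. Where a gene is printed, the first such window is shown. A match is a description of these letters, not a bound site, and the windows were searched only for genes with an entry. For lipid-associated genes the motif was an AP-1-like pattern that allows any middle base (TGANTCA), so it is looser than an AP-1 site. It was in 4 of 21 promoters (19.0%) against 7.82% of all 27025 promoters and 5.25% of the 8023 belonging to listed macrophage genes. The member shown is Igf1 (chr10:87860861-87861110, plus strand), the called gene with the smallest p among those holding a match. Its match reads TGAATCA, with A as the open base, and its window lies inside the gene as listed (chr10:87858265-87937042).
Igf1: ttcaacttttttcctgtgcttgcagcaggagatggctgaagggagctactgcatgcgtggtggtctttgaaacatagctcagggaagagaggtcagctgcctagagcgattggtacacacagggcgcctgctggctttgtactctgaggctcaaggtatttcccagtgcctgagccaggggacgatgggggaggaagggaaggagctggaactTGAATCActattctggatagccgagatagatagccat

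Lysosomal genes moved less uniformly. Of 45 measured members 18 fell, and 1, Tfeb, which encodes a master regulator of lysosome genes, rose by 1.06 ± 0.26, for a list median of -0.20. The count of falls was 11 without FcR2bko_595 and 10 without FcR2bko_875. Ctsl, the protease cathepsin L, was at 503, 723 and 999 against 182, 146 and 127 CPM (-2.24 ± 0.24, limma adjusted p = 0.000157), with a clear gap between the groups. Grn, the lysosomal protein progranulin, was at 3021, 4705 and 4895 against 1996, 1673 and 1422 CPM (-1.29 ± 0.20). Tfec, a relative of Tfeb found in macrophages, was at 14.3, 21.9 and 25.4 against 2.81, 3.3 and 1.05 CPM (-2.70 ± 0.34), so Tfeb and Tfec moved in opposite directions. The CLEAR motif of lysosomal genes (TCACGTGA) was in 6 of 38 promoters (15.8%) against 0.91% of all and 1.89% of those of listed genes. Atp6v1a, a subunit of the proton pump that acidifies lysosomes, was at 514, 572 and 632 against 315, 293 and 231 CPM (-1.04 ± 0.16), and its promoter (chr16:44139260-44139509, minus strand) holds 1 match.
Atp6v1a: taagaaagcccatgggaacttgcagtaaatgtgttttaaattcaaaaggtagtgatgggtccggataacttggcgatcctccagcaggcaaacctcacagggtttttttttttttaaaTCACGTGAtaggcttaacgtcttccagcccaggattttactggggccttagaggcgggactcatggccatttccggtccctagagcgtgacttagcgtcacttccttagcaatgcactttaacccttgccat

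Among receptors and bridging factors for dying cells and modified lipids several fell. Of 17 measured genes 7 fell (4 without any 1 of FcR2bko_595, FcR2bko_875 and iR2ko_592) and 2 rose (1 without FcR2bko_847 or iR2ko_579), against 13.8% of all genes lower and 15.8% higher. Msr1, a scavenger receptor for modified lipoproteins, was at 581, 639.6 and 912 against 178, 156 and 127 CPM (-2.19 ± 0.18, limma adjusted p = 4.65e-05), with no overlap. Lrp1, an endocytic receptor, was at 263, 433 and 540.4 against 130.1, 86.9 and 51.7 CPM (-2.22 ± 0.31), and Mfge8, which bridges dying cells to integrins, was at 110.1, 157 and 61.6 against 16.5, 37.3 and 25.3 CPM (-1.99 ± 0.36). Axl, a receptor kinase for dying cells, went the other way, from 802, 661 and 536 to 1138, 1218 and 1507 CPM (0.96 ± 0.17, limma adjusted p = 0.00163).

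Among genes of repair and growth factors 9 of 18 fell and 2, the platelet-derived growth factor chain Pdgfb (1.08 ± 0.18) and the collagenase Mmp13 (1.92 ± 0.55), rose (1 without FcR2bko_875 or iR2ko_592). The shares over all genes were 13.8% lower and 15.8% higher, so the count of rises was near that of genes at large. Osm, oncostatin M, a cytokine of the IL-6 family, was at 99.9, 104.8 and 79.2 against 17.2, 7.28 and 7.87 CPM (-3.11 ± 0.35, limma adjusted p = 0.000206), and the groups lay far apart. Thbs1, the adhesive glycoprotein thrombospondin 1, fell by 2.58 ± 0.40.

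Chemokine genes mostly fell where they moved. Of 24 measured chemokines and receptors 11 fell and 3 rose, and the rises included Ccl5 (1.93) and Cxcl16 (0.38). The count of rises was 1 without FcR2bko_595 or without FcR2bko_875. Cxcl1 and Cxcl2, which attract neutrophils, were at 54.2, 72 and 55.9 against 7.09, 1.84 and 2.93 CPM (-3.77 ± 0.47) and at 466, 557 and 553 against 82.4, 45.8 and 46.7 CPM (-3.20 ± 0.74). Both genes were high in all Fcgr2b-/- and low in all double-mutant libraries. Ccl2, the main monocyte chemoattractant, was at 42.5, 39.5 and 39 against 15.1, 10.2 and 11.7 CPM (-1.65 ± 0.41, limma adjusted p = 0.0108). Pf4, the chemokine platelet factor 4, fell by 2.27 ± 0.34.

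Response genes of TNF and NF-kB signalling gave more falls than rises. Of 32 measured, 12 fell (7 without iR2ko_592) and 5 rose (3 without FcR2bko_595, 2 without FcR2bko_875), against 13.8% of all genes lower and 15.8% higher, so the count of rises was near that of genes at large. Those that fell included Socs3, a feedback inhibitor of cytokine receptors (-1.97 ± 0.47), and Ier3, an early stress response gene (-2.93 ± 0.34). Traf1, an adaptor induced by NF-kB, rose from 61.6, 38.5 and 37.5 to 122, 117 and 151 CPM (1.51 ± 0.24, limma adjusted p = 0.000932). Tnf, whose protein is shed by ADAM17, was at 36.3, 27.1 and 33.4 against 32.8, 13.2 and 33.9 CPM and was not called (-0.37 ± 0.33, limma adjusted p = 0.442). Only iR2ko_823 lay below the Fcgr2b-/- values of Tnf, and without it the difference was 0.057.

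Early response genes of ERK signalling gave 5 falls and 0 rises among 17 measured (3 without FcR2bko_875 or iR2ko_823). The share of all genes that fell was 13.8%. Fos, a subunit of AP-1, was at 1887, 1759.6 and 2169 against 431, 251 and 428 CPM (-2.42 ± 0.64, limma adjusted p = 0.0145), and the call was lost without iR2ko_823 (0.0506). Fosl2, a relative of Fos, changed by -2.17 ± 0.29. Such genes also respond to tissue digestion, and a list of dissociation and handling genes, which holds Fos, Ier3 and Socs3 too, gave 7 falls (3 without FcR2bko_875 or iR2ko_823) and 1 rise among 21 (2 without FcR2bko_595, but lost without FcR2bko_847, FcR2bko_875, iR2ko_579 or iR2ko_592). Its summed level was 6220.1 to 8229 CPM in Fcgr2b-/- and 2899.8 to 3621 CPM in double-mutant libraries, and its part in the early response result was not tested.

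Cell cycle genes fell almost throughout. Of 21 measured proliferation genes 20 fell, with a median of -1.80, and the remaining gene was the replication helicase subunit Mcm2 (-0.73, limma adjusted p = 0.0638). Cdk1, the kinase that drives entry into mitosis (chr10:69336635-69352938), was at 54.8, 71.6 and 40.2 against 11.8, 9.25 and 10.8 CPM (-2.25 ± 0.32, limma adjusted p = 0.000569). Its partner Ccnb1, cyclin B1, was at 36.3, 51.8 and 25.9 against 7.78, 5.92 and 5.14 CPM (-2.38 ± 0.36). In both genes FcR2bko_595 was the highest library and the double mutants differed little from each other. Stmn1, a microtubule regulator of dividing cells, changed by -1.85 ± 0.27. The list sum was 959.9 to 1657 CPM in Fcgr2b-/- and 498 to 527 CPM in double-mutant libraries. Cell cycle promoters are known for CCAAT boxes, and 16 of 18 held the letters CCAAT (88.9%) against 37.49% of all promoters and 40.6% of those of listed genes. The Cdk1 promoter (chr10:69352913-69353162, minus strand) holds 3 matches.
Cdk1: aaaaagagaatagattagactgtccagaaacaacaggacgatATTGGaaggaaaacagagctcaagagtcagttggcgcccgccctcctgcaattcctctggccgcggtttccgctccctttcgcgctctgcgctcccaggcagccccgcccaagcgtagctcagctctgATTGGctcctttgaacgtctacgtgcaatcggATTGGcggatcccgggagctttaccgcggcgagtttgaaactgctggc

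Antioxidant, iron and energy genes fell in part. Of 16 NRF2 target and iron genes 11 fell and 0 rose (median -0.97). Hmox1, the heme-degrading enzyme, was at 832, 2079 and 3207 against 459, 249 and 159 CPM (-2.75 ± 0.50, limma adjusted p = 0.00208), with the lowest Fcgr2b-/- library still above the highest double mutant. Txnrd1, thioredoxin reductase, changed by -1.33 ± 0.19. Among 22 genes of glycolysis and hypoxia 10 fell and 0 rose (1 without FcR2bko_875), including Pkm, the pyruvate kinase, at -1.12 ± 0.16.

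Ribosomal protein and respiratory chain genes fell by small amounts. Of 71 cytosolic ribosomal protein genes 46 fell and 1 rose (lost without FcR2bko_595 or iR2ko_579, and 2 without iR2ko_823; median -0.55), with Rplp0, a protein of the ribosomal stalk, at -0.97 ± 0.14. With CPM rescaled to the listed genes 58 fell. Of 84 nuclear genes of the respiratory chain 42 fell and 1 rose (median -0.38), with Atp5e, an ATP synthase subunit, at -0.72 ± 0.12. The respiratory falls numbered 21 without FcR2bko_875 and 18 without iR2ko_592. Of 12 genes of the mitochondrial genome 0 rose and 0 fell. Their summed share of CPM was 0.721% to 1.06% in the Fcgr2b-/- set and 0.891% to 1.24% among double mutants.

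The 3 largest rises were in Clec9a, Xcr1 and Dnase1l3. Clec9a (chr6:129408862-129424764), a receptor on cross-presenting dendritic cells for actin exposed by dead cells, was at 6.17, 1.32 and 0.302 CPM in Fcgr2b-/- and 60.7, 46.5 and 68.8 in double-mutant libraries (4.40 ± 0.48, limma adjusted p = 0.000157). Xcr1, the chemokine receptor of the same cells, was at 4.2, 2.3 and 0.875 against 122, 32.6 and 32.6 CPM (4.02 ± 0.66), with iR2ko_579 the highest. For both genes each Fcgr2b-/- library lay far below each double mutant. Dnase1l3 (chr14:7964533-7994573), a secreted nuclease that digests chromatin in cell debris and whose loss leads to lupus-like disease, was at 147, 58.1 and 23.7 against 838, 917 and 1114 CPM (3.98 ± 0.47, limma adjusted p = 0.000238). Its groups were separated in every library.

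Of 12 measured dendritic cell genes 7 rose and 0 fell (median 0.99), among them Batf3, a transcription factor that cross-presenting dendritic cells need (1.00 ± 0.20). The summed level of the list was 128 to 189.5 CPM in Fcgr2b-/-, 346 to 457 in double-mutant and 257 to 374 in wild-type libraries. These markers moved together with the antigen presentation genes described below, and their part in that result was not tested.

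Further large rises lay mostly outside the lists. Adam33 (chr2:131050591-131063814), a membrane metalloprotease, was at 2.88, 5.7 and 4.71 against 43.2, 30.5 and 41.5 CPM (2.88 ± 0.20, limma adjusted p = 2.9e-05), and it varied little within groups. Dlc1 (chr8:36567751-36953143), a GTPase-activating protein, was at 4.2, 4.32 and 2.36 against 25, 36.9 and 61.8 CPM (3.13 ± 0.29). Srpk3, a kinase of splicing factors, was at 11.5, 5.61 and 9.27 against 54.8, 71.7 and 134 CPM (3.11 ± 0.30). In Dlc1 and Srpk3 alike iR2ko_592 was the highest library. Skint3, of an immunoglobulin-like family, changed by 2.83 ± 0.26, Asb2, a subunit of a ubiquitin ligase, by 2.79 ± 0.34, the pseudogene Slc2a4rg-ps by 2.70 ± 0.25 and Klrk1, the activating receptor NKG2D, by 2.63 ± 0.62. Cd300e, a receptor of monocytes that lack Ly6C and a member of the monocyte list, rose from 46.3, 66.8 and 15.6 to 356, 239 and 145 CPM (2.63 ± 0.58, limma adjusted p = 0.00549), while 5 of the 14 monocyte genes fell, the haptoglobin gene Hp among them (-2.60 ± 0.63, -1.62 without iR2ko_592, and not called in the authors' deposited table at an adjusted p of 0.0835). The monocyte falls numbered 3 without FcR2bko_595, FcR2bko_875 or iR2ko_592, and the 2 monocyte rises numbered 1 without FcR2bko_875 or iR2ko_823.

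Interferon-stimulated genes rose as a group. Of 32 measured members 29 rose and 0 fell, against 15.8% of all genes, with a median of 1.19, and the 3 not called were Bst2, Ly6e and Cxcl10. Stat2 (chr10:128270576-128292849), a transcription factor of the type I interferon pathway, was at 66, 71.6 and 30.3 against 153, 177 and 204 CPM (1.74 ± 0.29, limma adjusted p = 0.00131). Mx1, an antiviral GTPase, was at 47.5, 51.9 and 32 against 149.5, 108 and 138 CPM (1.58 ± 0.22), and Oas2, which senses double-stranded RNA, was at 58.9, 85.4 and 40.6 against 183, 166 and 251 CPM (1.72 ± 0.25). In all 3 genes FcR2bko_875 was the lowest library, and the double mutants lay above every Fcgr2b-/- library. Parp14, an ADP-ribosyltransferase induced by interferon, changed by 1.30 ± 0.19. The list sum was 2816 to 5167 CPM in Fcgr2b-/- and 8546 to 8917 CPM in double-mutant libraries. The interferon response element (GAAA, any 2 bases, then GAAA, on either strand) was in 10 of 20 promoters of the list (50.0%), against 3.46% of all promoters and 3.47% of those of listed genes. The Stat2 promoter (chr10:128270248-128270497, plus strand) holds 1 match, read from the opposite strand.
Stat2: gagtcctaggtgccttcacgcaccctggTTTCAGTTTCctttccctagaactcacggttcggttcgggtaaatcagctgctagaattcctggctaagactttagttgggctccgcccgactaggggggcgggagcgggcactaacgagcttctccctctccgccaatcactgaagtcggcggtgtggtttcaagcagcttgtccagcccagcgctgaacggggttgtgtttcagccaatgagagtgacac

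Of 16 interferon-gamma induced GTPases and their partners 10 rose and 0 fell (median 1.36), 6 without FcR2bko_875 and 5 without iR2ko_579. The same response element was in 7 of their 10 promoters (70.0%). Gbp3 (1.58 ± 0.38) and Irgm2 (1.42 ± 0.33), GTPases that act on vacuoles of intracellular microbes, were among the rises. Gbp5 was at 9.14, 6.63 and 2.51 against 137, 26.2 and 19.8 CPM (2.73 ± 0.79, limma adjusted p = 0.0223), so iR2ko_579 lay far above the other double mutants, and the call was lost without it (1.88, 0.0809), without FcR2bko_875 (0.0898) and with limma voom (0.102). Guanylate-binding proteins are near-identical in part, and the sources used here do not state how shared reads were assigned.

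Genes of antigen presentation by MHC class II rose in 9 of 10 cases (median 1.39). Ciita, the factor that switches on this gene set, was at 31.7, 13.7 and 5.98 against 45.5, 55 and 70.6 CPM (1.93 ± 0.42, limma adjusted p = 0.00496), with FcR2bko_847 the closest to the double mutants. H2-Ob (chr17:34238903-34245907), a chain of the peptide-loading modulator of B cells and dendritic cells, was at 15.4, 13.5 and 11.9 against 68.5, 89.1 and 92.8 CPM (2.53 ± 0.18, limma adjusted p = 2.9e-05). H2-Eb1, a chain of the presenting molecule, was at 10646, 5898 and 6282 against 18912, 22584 and 25390.5 CPM (1.59 ± 0.28). These groups did not overlap for any of the 3 genes. H2-DMb1, a chain of the peptide exchanger, changed by 1.32 ± 0.20. The list sum was 61563 to 104979.6 CPM in Fcgr2b-/- and 170669.9 to 243999.9 CPM in double-mutant libraries. Class II promoters are known for a CCAAT-containing Y box, and all 7 with an entry held CCAAT (100%), against 37.49% of all promoters. The H2-Ob promoter (chr17:34238655-34238904, plus strand) holds 1 match.
H2-Ob: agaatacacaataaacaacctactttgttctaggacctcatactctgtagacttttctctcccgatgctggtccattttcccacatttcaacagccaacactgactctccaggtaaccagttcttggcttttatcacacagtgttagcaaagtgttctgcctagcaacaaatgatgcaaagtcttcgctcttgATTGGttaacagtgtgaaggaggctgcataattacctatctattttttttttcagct

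Of 16 genes of MHC class I and the immunoproteasome 9 rose and 0 fell (median 0.80). H2-K1, a classical class I heavy chain, was at 846.9, 771 and 575 against 2288, 2119 and 2625 CPM (1.69 ± 0.16, limma adjusted p = 8.36e-05), with a gap between the groups. Tap1, the peptide transporter, changed by 1.72 ± 0.30 and the non-classical H2-T23 by 1.69 ± 0.23. H2-Q6 (2.83 ± 0.31) and H2-Q7 (2.74 ± 0.33) were among the largest rises of all genes, but these near-identical copies can share reads, so their single values are uncertain.

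Receptors for immune complexes and sensors of nucleic acids mostly rose where they moved. Of 13 Fc gamma receptor and signalling genes 6 rose, Fcgr2b among them, and 0 fell (1 without FcR2bko_847). Fcgr4, an activating IgG receptor, was at 143, 166 and 146 against 469.8, 294 and 279 CPM (1.15 ± 0.26, limma adjusted p = 0.00667), with no overlap. Fcgrt, the neonatal Fc receptor that recycles IgG, changed by 1.16 ± 0.14 and Lyn, a kinase below inhibitory and activating receptors, by 0.80 ± 0.13. Of 18 Toll-like receptor and sensing genes 6 rose and 1 fell (2 without FcR2bko_847 or iR2ko_592), with Tlr9, the endosomal receptor for DNA, at 1.01 ± 0.21 and Unc93b1, its chaperone, at 0.73 ± 0.17. Of 14 complement genes 1 rose (2 without iR2ko_579) and 3 fell (1 without FcR2bko_875 or iR2ko_823), including Cfp, properdin, which stabilises the alternative pathway convertase (-1.61 ± 0.31). Set against 15.8% of all genes higher and 13.8% lower, the complement counts were near those of genes at large.

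Of 12 genes of IL-1 and the inflammasome 4 rose (2 without FcR2bko_875 or iR2ko_579) and 2 fell, of which both were lost without FcR2bko_847, FcR2bko_595 or iR2ko_592 and 1 without FcR2bko_875 or iR2ko_823. Among all genes 15.8% were higher and 13.8% lower, so the count of falls was near that of genes at large. Il18, a cytokine released by the inflammasome, rose by 0.93 ± 0.18, and Il1r2, the decoy receptor for IL-1, by 1.21 ± 0.23. Il1rn, the natural antagonist, fell by 1.40 ± 0.45 (limma adjusted p = 0.0361) and was at -0.74 without iR2ko_592 (limma adjusted p = 0.0959), and its call was also lost without FcR2bko_847 (0.116) or FcR2bko_595 (0.0683), with the 2 groups fitted alone (0.0901) and in the authors' deposited table (0.0856). Il1b, the cytokine itself, was at 652, 361 and 411 against 366, 268 and 686 CPM and overlapped (-0.17 ± 0.46, limma adjusted p = 0.817).

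The iRhom and ADAM17 machinery gave few calls. Of 9 measured genes 2 rose (1 without FcR2bko_847, FcR2bko_875, iR2ko_579 or iR2ko_592) and 0 fell (1 without FcR2bko_875 or iR2ko_579), and the median of 0.078 became -0.020 with CPM rescaled to the listed genes. Adam17 was at 449, 346 and 397 against 414, 397 and 437 CPM (0.074 ± 0.12, limma adjusted p = 0.691), and the groups overlapped. Rhbdf1, which encodes iRhom1, the relative of iRhom2, was at 2, 2.92 and 2.45 against 4.6, 3.49 and 4.97 CPM (0.63 ± 0.21, limma adjusted p = 0.0398), a call lost in 13 of the alternative settings, among them those without FcR2bko_847 (limma adjusted p = 0.114), FcR2bko_875 (0.0827), iR2ko_579 (0.0861), iR2ko_592 (0.127), WTa (0.0501), WTb (0.0571) or iR2ko_KO3 (0.0527). Mapk14, the stress kinase p38 alpha that can activate ADAM17, was at 81.3, 88 and 87.9 against 127, 110.4 and 138 CPM (0.54 ± 0.11, limma adjusted p = 0.00381), with all double mutants above all Fcgr2b-/- libraries.

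Of 20 genes for membrane proteins that ADAM17 sheds 4 rose and 4 fell (2 without iR2ko_592), and Trem2, Lrp1 and Il1r2 were among them. Over all genes 15.8% were higher and 13.8% lower, so both counts were near those of genes at large. Egfr, the EGF receptor, was at 2.97, 2.39 and 1.21 against 1.7, 1.16 and 0.722 CPM (-0.52 ± 0.38, limma adjusted p = 0.334) and overlapped. Hbegf was not analysed here.

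Transcripts of other cell types were present and differed between the groups. Of 11 T and NK cell genes 7 rose and 0 fell (median 2.06), and 1 rose without any 1 of FcR2bko_595, FcR2bko_875, iR2ko_579 and iR2ko_823, against 10 without iR2ko_592. Cd4, a coreceptor of T cells that some myeloid cells also express, was at 50.7, 59.8 and 31.3 against 158, 201 and 229.8 CPM (2.06 ± 0.26). Trbc2, the constant part of the T cell receptor beta chain, was at 2.86, 1.43 and 0.785 against 25.8, 13.8 and 3.52 CPM (2.25 ± 0.63, limma adjusted p = 0.0195). Its level was lowest in iR2ko_592 among the double mutants, and its call was lost without FcR2bko_595, FcR2bko_875, iR2ko_579 or iR2ko_823 (adjusted p 0.0539 to 0.0736) and with limma voom (0.139). The list sum was 52.2 to 104 CPM in Fcgr2b-/- and 578.7, 443 and 279 CPM in the double mutants. The part of these and the following cell types in the changes of interferon and presentation genes was not tested.

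Of 9 B and plasma cell genes 3 rose and 1 fell, with list sums of 429 to 647 CPM in Fcgr2b-/- and 969 to 1357 CPM in double-mutant libraries. Cd79b, a chain of the B cell receptor complex, changed by 1.05 ± 0.10. Igkc, the immunoglobulin kappa constant region, was at 2, 4.8 and 3.29 against 20.51, 69.4 and 17.8 CPM (2.86 ± 0.84, limma adjusted p = 0.0234), with iR2ko_823 the highest, and the call was lost without FcR2bko_847 (0.0651), FcR2bko_875 (0.0611) or iR2ko_823 (0.0883), with limma voom (0.203) and with a pseudocount of 4 CPM (0.0584). Of 14 genes on the endothelial list only 3 were measured, so it says little about that cell type. All 3 rose, from sums of 10.2 to 33.3 CPM to 72.4 to 118 CPM, with Pecam1, the junction protein CD31, at 2.03 ± 0.39.

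Tubule genes gave a mixed picture. Of 14 genes of the distal nephron and collecting duct 4 rose and 0 fell, and 2 rose without FcR2bko_595 or FcR2bko_875. Egf, the growth factor precursor of the distal tubule, was at 27.3, 10.4 and 8.82 against 83.1, 356 and 80.2 CPM (3.20 ± 0.61, limma adjusted p = 0.00266), with iR2ko_823 the highest of the 6, and was at 324 to 1315 CPM in wild-type libraries. Calb1, a calcium-binding protein of the same segment, changed by 2.62 ± 0.58, a call lost with limma voom (0.248). List sums were 533 to 1434 CPM in Fcgr2b-/-, 806, 3527 and 688 CPM in the double mutants and 2569 to 10738 CPM in wild-type libraries. Of 20 proximal tubule genes 1 rose (4 without FcR2bko_847, lost without FcR2bko_875 or iR2ko_592) and 2 fell (1 without FcR2bko_847, iR2ko_579 or iR2ko_592), with sums of 2643 to 5609 and 1673 to 2661 CPM.

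Genes of tubular injury, a list that includes Spp1 and Lcn2, fell in 10 of 17 cases and rose in 0 (median -1.42). List sums were 10250.1 to 11912 CPM in Fcgr2b-/- and 1360.0 to 2486 CPM in double-mutant libraries. Spp1 alone, at the values given above, made up most of the sum in each Fcgr2b-/- library. The fibrinogen chain Fgg changed by -3.51 ± 0.41, a call lost with limma voom (0.052). Of 9 fibroblast, mesangial and matrix genes 5 fell and 0 rose (1 without FcR2bko_847), with Sparc, a collagen-binding protein, at -2.42 ± 0.39. Sums of this list were 252 to 475 CPM in Fcgr2b-/- and 24.5 to 100.2 CPM in double-mutant libraries. Fn1, at the values given above, is on the list and made up most of the sum in each Fcgr2b-/- library. What share of the Spp1, Lcn2 and Fn1 differences came from RNA of tubule or matrix cells was not tested.

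**Figure D3:**
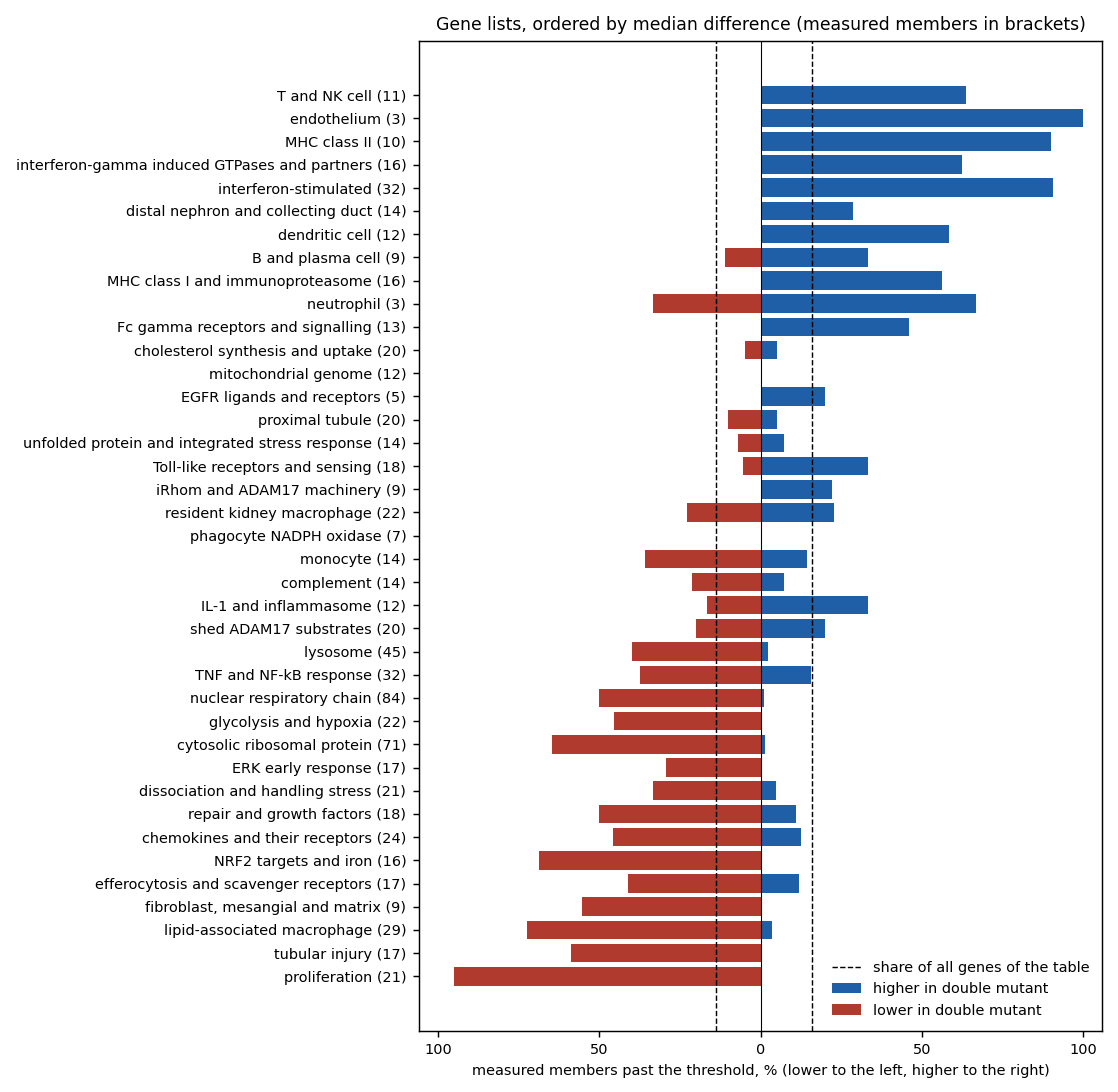
For each of 39 gene lists with at least 3 measured members, the bars give the percentage of members called higher (right) and lower (left) in the double mutant, and dashed lines mark the 15.8% and 13.8% of all genes. Interferon-stimulated and MHC class II genes reach furthest to the right and proliferation and lipid-associated macrophage genes furthest to the left among the lists with 10 or more members.

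**Figure D4:**
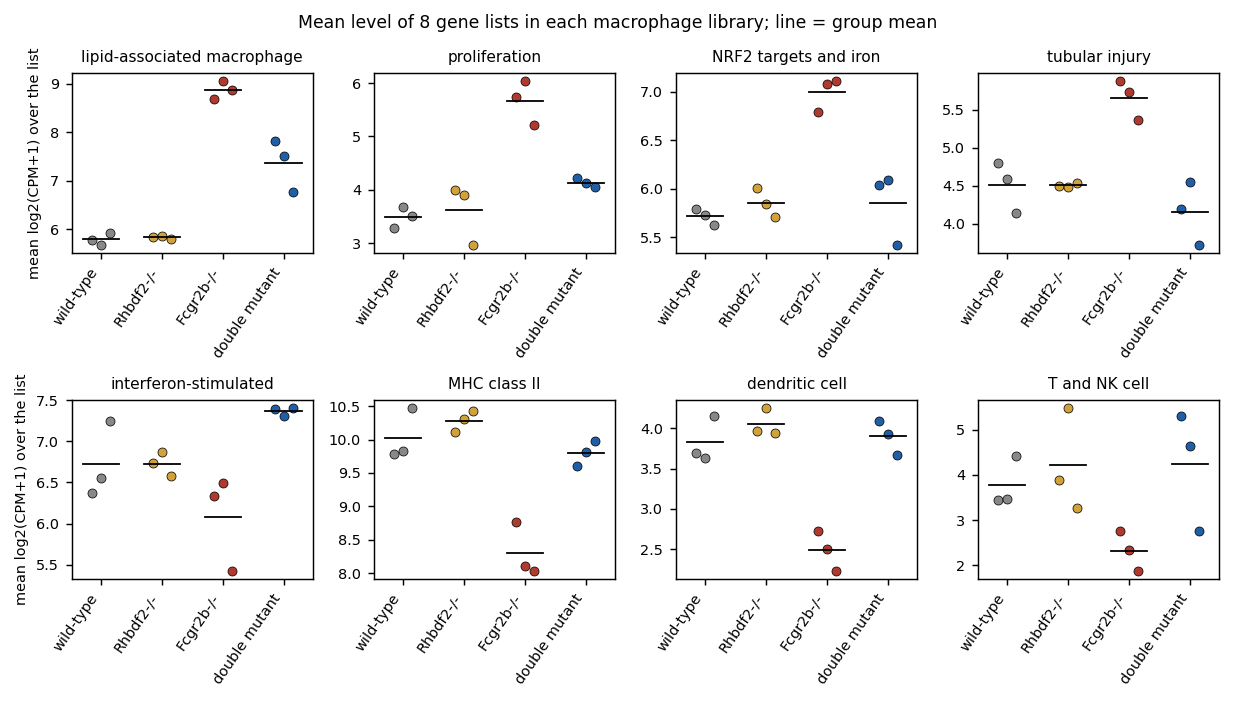
Mean log2(CPM+1) over the measured members of 8 lists, with 1 point per library and the 4 genotypes side by side. The 3 double mutants lie above the 3 Fcgr2b-/- libraries for the interferon-stimulated list and below them for the lipid-associated macrophage list.

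The double mutants were not alike in how far they lay from Fcgr2b-/-. Among the 1450 genes that fell, iR2ko_592 was the lowest double mutant in 830 and iR2ko_579 the highest in 705. Of the 1663 genes that rose, iR2ko_592 was the highest in 855. Lcn2, Fn1, Spp1 and Ccr1 follow that order, whereas Trem1 and Cxcl2 do not. Pearson correlations of log2(CPM+1) over genes were 0.961 to 0.970 among double mutants, 0.966 to 0.982 among Fcgr2b-/- libraries and 0.910 to 0.943 between the groups, as a description, since genes are not independent.

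Whether Rhbdf2 loss changed a gene by a different amount in Fcgr2b-/- than in Fcgr2b-sufficient mice was tested by the interaction of the 2 genotypes, which uses the same Fcgr2b-/- and double-mutant libraries and adds the wild-type and Rhbdf2-/- ones. It called 1255 genes (11.9%), 635 higher and 620 lower, 1219 of which were called in the same direction in the double mutant against Fcgr2b-/-. The count moved with single libraries, to 517 without iR2ko_KOa, 647 without WTb, 695 without iR2ko_KOb, 705 without iR2ko_592 and 788 without FcR2bko_595. Between Rhbdf2-/- and wild-type macrophages 2 genes were called (0.019%), both named above, with 339 at an unadjusted limma p below 0.05, 0 with limma voom and 0 in the authors' deposited table. For Lcn2 the Rhbdf2-/- minus wild-type difference was 0.41 ± 0.45 and the interaction -5.18 ± 0.64 (limma adjusted p = 0.0025). For Trem2 they were -0.089 ± 0.34 and -2.34 ± 0.48 (0.0136), for Adam33 0.15 ± 0.20 and 2.73 ± 0.28 (0.00155), and for Stat2 0.19 ± 0.29 and 1.55 ± 0.41 (0.0317). In none of these 4 genes was the Rhbdf2-/- minus wild-type difference called. Lcn2 had no reads in some of the wild-type and of the Rhbdf2-/- libraries, so a fall there could hardly show. Its interaction therefore mostly restates the double-mutant against Fcgr2b-/- difference and cannot tell whether Rhbdf2 loss acts differently on the 2 backgrounds.

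Wild-type levels were set beside these values, in libraries of the same fit. Fcgr2b-/- and wild-type macrophages, which share the Fcgr2b-/- libraries with the comparison above, differed in 5551 of 10523 genes (52.8%). Spp1 was at 935, 665 and 241 CPM in WTa, WTb and WT2, Clec9a at 30.7, 23.7 and 50 CPM and Dnase1l3 at 623, 539 and 863 CPM. The Fcgr2b-/- minus wild-type difference was 3.97 for Spp1, -3.62 for Clec9a and -3.46 for Dnase1l3. The double-mutant values given above overlapped the wild-type range for each of the 3 genes, but whole lists differed in this respect. Summed over the lipid-associated list the wild-type libraries were at 5658 to 6689 CPM, over the lysosomal list at 30575 to 34941 CPM against 49733 to 56103 CPM in the double mutants, and over the ribosomal list at 8872 to 10969 against 13129 to 14541 CPM. For these 3 lists every double mutant lay above every wild-type library and below every Fcgr2b-/- library. The interferon-stimulated sum was 4253, 4948 and 8528 CPM in WTa, WTb and WT2. WTa and WTb lay well below the double mutants, but WT2 nearly reached the lowest of them, iR2ko_592 at 8546 CPM. WT2 also stood apart on the dissociation and handling list, at 5289 CPM against 1792 and 2153 in WTa and WTb. So did iR2ko_KO3, at 4592 CPM against 2110 and 2198 in iR2ko_KOa and iR2ko_KOb. The part of this spread in the comparisons with wild-type and in the interaction was not tested. The MHC class II sum was 173500.3 to 251769 CPM in wild-type libraries, which overlapped the double mutants.

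Lists differed in how many members passed the interaction test. Among proliferation genes 12 of 21 passed with a lower value, as did 12 of 29 lipid-associated, 8 of 16 NRF2 and iron, 6 of 17 tubular injury and 42 of 71 ribosomal protein genes, against 5.89% of all genes. Of 32 interferon-stimulated genes 13 passed with a higher value, and 3 of 10 MHC class II genes did, against 6.03% of all genes. Of the 16 interferon-gamma induced GTPases and partners 0 passed with limma, 8 were higher at an unadjusted p below 0.05 and 0 passed with voom. Beside Trem1, Adam33 and Msr1, the smallest interaction p-values belonged to Paxbp1, a chromatin adaptor (1.85 ± 0.18), Nlrp1b, an inflammasome sensor (1.80 ± 0.20), and the non-coding Dleu2 (1.64 ± 0.19).

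In whole kidney, in other libraries of the same genotypes (4 each), the same contrast called 5578 of 12315 genes (45.3%), 22.5% higher and 22.8% lower. Among 9884 genes measured in both tissues, 2790 were called in macrophages, 4324 in kidney and 1178 in both. Of the 1178, 782 went in the same direction in each, 295 higher and 487 lower, and 396 in opposite directions. Calls shared in direction were 28.0% of the macrophage calls, not far above the 22.5% and 22.8% of all kidney genes. They were 18.1% of the kidney calls, against 15.8% higher and 13.8% lower among all macrophage genes. The genes that follow were chosen by their macrophage values or set beforehand. Lcn2 differed in kidney by -4.51 ± 0.62, Fn1 by -2.37 ± 0.43, Spp1 by -1.68 ± 0.21, Trem2 by -2.46 ± 0.36 and Hmox1 by -2.18 ± 0.43. Clec9a differed there by 1.29 ± 0.36, Dnase1l3 by 2.14 ± 0.63 and Egf by 2.33 ± 0.24, also in the direction seen in macrophages. Igf1 (-0.29 ± 0.27, limma adjusted p = 0.39) and Fabp5 (-0.29 ± 0.23, 0.319) were not called in kidney, and Tfec rose there by 0.63 ± 0.15 while it fell in macrophages. Of 84 respiratory chain genes 49 rose in kidney, where 42 fell in macrophages. In kidney the labels give each genotype its own sequencing lane, and the effects of lane and of genotype cannot be told apart. The tissues were normalized separately, and the difference between them was not tested.

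**Figure D5:**
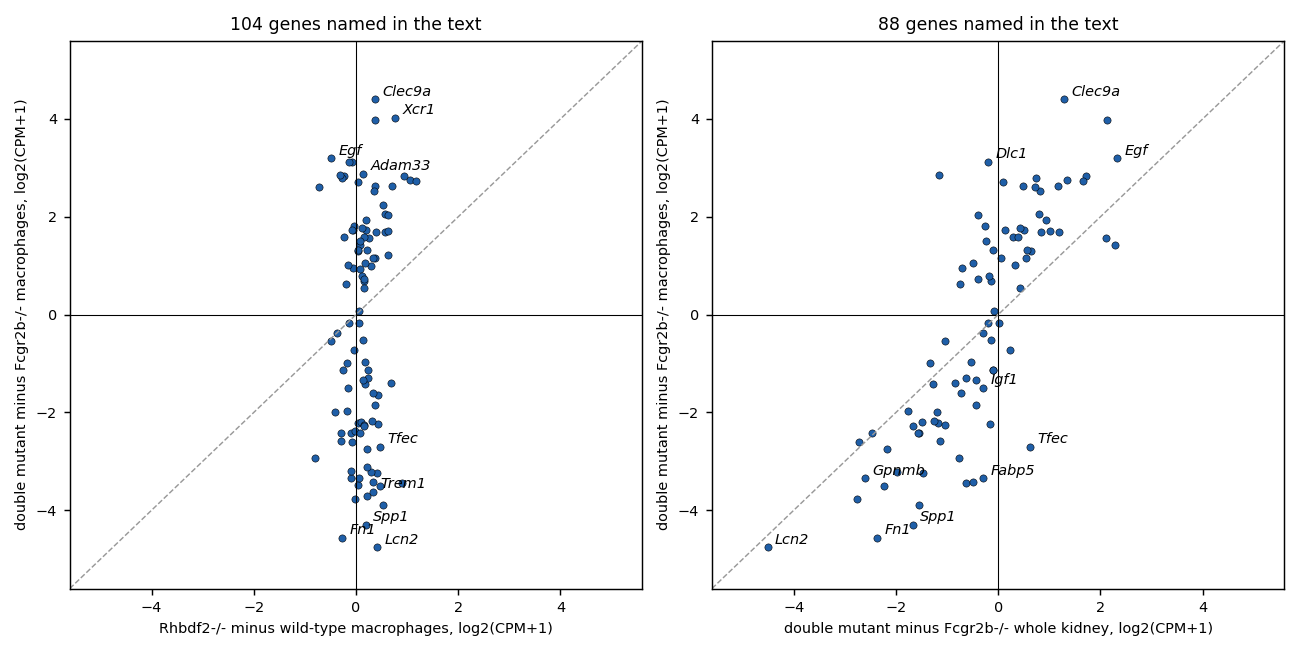
The double-mutant minus Fcgr2b-/- log2 difference in macrophages of the named genes (vertical) against Rhbdf2-/- minus wild-type in macrophages (104 genes) and against the same contrast in whole kidney (88 genes), with a dashed line of equal differences. The genes were chosen on the vertical axis, and Rhbdf2-/- minus wild-type differences stay between -0.80 and 1.18.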

How the data were processed

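Polyadenylated RNA of 12 sorted macrophage and 16 whole kidney libraries was analysed, grouped by genotype label. Per the file headers, the deposited values are log2 CPM (counts scaled to library size), calculated by the authors, and the deposited p-values, false discovery rates and log2 fold changes are the authors' own. The table's headings point to an edgeR fit by the authors, and its genes had already been filtered. Per the submitters' processing notes, the builds were mm10 and GRCm38. Aligner, counter, annotation and use of strand were not given in the sources, which leaves overlapping and antisense genes uncertain.

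CPM was recovered as the antilog. Log2(CPM+1) was fitted with limma 3.58.1 (R 4.3.3, eBayes with trend), with the 4 genotypes of a tissue in 1 fit, and p-values were adjusted by Benjamini-Hochberg over all genes of a table. Low values were whole multiples of 1 read in every macrophage library (100%, tolerance 0.1 read), which gave the reads per library and the voom alternative. A floor of 3 reads covers counting error only. Pairs of macrophage libraries with identical values numbered 0, and columns holding further per-sample values numbered 0. The fit was tested on simulated data.

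Named genes were Rhbdf2, Fcgr2b and a few set genes, the 14 largest rises and 14 largest falls by size among calls whose groups did not overlap and whose log2 CPM averaged 1 or more, up to 4 called members with the smallest p of each of 40 lists, and 6 genes with the smallest interaction p. Predicted genes and antigen receptor segments were left out of the rises and falls. The gate markers, and further list members that the text names to complete a count, were picked after their values were seen. The members and lists were chosen with earlier results of these data known. Lists are described by counts and medians beside all genes, without a set test. Some genes are not reported here. F4/80 is listed under its older symbol Emr1. Promoters came from RefSeq (GRCm38.p6).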

Additional observations from a re-analysis of the deposited data

Results flagged for a closer look

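The double-mutant minus Fcgr2b-/- difference departed from the Rhbdf2-/- minus wild-type difference, by the limma interaction at an adjusted p below 0.05, in the genes given here with their interaction on the log2 scale. Among genes with lower values, the secreted and matrix proteins were Lcn2 at -5.18, Fn1 at -4.29, Spp1 at -4.48, Ecm1 at -3.75, Saa3 at -3.52, Fga at -3.51, Fgg at -3.98, Thbs1 at -2.28 and Sparc at -2.51. Some wild-type libraries had no reads of Lcn2 or of Fga, and some Rhbdf2-/- libraries none of Lcn2, so a fall there could hardly show. Inflammatory receptors, enzymes and chemokines were Ccr1 at -4.40, Cxcl1 at -3.75, Ccl2 at -2.08, Pf4 at -2.42, Trem1 at -3.96, Cd38 at -4.34, Adam8 at -3.64, Arg1 at -3.93, Osm at -3.32 and Cfp at -1.95. Lipid handling, lysosome and scavenger genes were Trem2 at -2.34, Apoe at -1.60, Igf1 at -1.34, Cd63 at -1.35, Ctsl at -2.67, Grn at -1.52, Tfec at -3.17, Msr1 at -2.28 and Lrp1 at -2.26.

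The cell cycle genes were Cdk1 at -2.41, Ccnb1 at -2.36 and Stmn1 at -2.22. Metabolic and stress genes were Hmox1 at -2.97, Txnrd1 at -1.47, Pkm at -0.87, Rplp0 at -1.14, Atp5e at -0.68, Ier3 at -2.13 and Fosl2 at -2.49.

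Among genes with higher values, dendritic cell and leukocyte genes were Clec9a at 4.02, Xcr1 at 3.25, Dnase1l3 at 3.62, Cd4 at 1.49, Cd79b at 0.87, Cd81 at 1.29 and Axl at 1.01. Interferon and presentation genes were Mx1 at 1.81, Oas2 at 1.79, Parp14 at 1.25, Stat2 at 1.55, H2-Ob at 2.18, H2-Eb1 at 1.43, H2-DMb1 at 1.10, H2-K1 at 1.13, H2-T23 at 1.30, H2-Q6 at 1.89 and H2-Q7 at 1.68. Signalling and sensing genes were Traf1 at 1.43, Il18 at 0.85, Fcgrt at 0.83, Lyn at 0.67, Tlr9 at 1.18 and Nlrp1b at 1.80. Tubule genes were Egf at 3.68 and Calb1 at 3.34. Among the genes of this section, Saa3, Fgg and Calb1 lost their double-mutant against Fcgr2b-/- call with limma voom (adjusted p = 0.191, 0.052 and 0.248). The remaining ones were Dlc1 at 3.21, Srpk3 at 3.25, Adam33 at 2.73, Skint3 at 3.07, Asb2 at 3.05, Slc2a4rg-ps at 2.66, Paxbp1 at 1.85 and Dleu2 at 1.64.

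Within groups of 4 kidney libraries, Trem2 in the double mutant iR2ko_65, at 0.771 CPM, lay far below the other 3, and Hmox1 in the Fcgr2b-/- library FcR2bko_398, at 481 CPM, lay far above the other 3. Chance gives about 1 such flag in 20 groups. Tfec differed in direction between tissues, with 0.63 in kidney against -2.70 in macrophages, and that difference was not tested.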

How the results depend on the processing

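The count of 3113 genes called between double-mutant and Fcgr2b-/- macrophages ranged from 2342, with the 2 groups fitted alone, to 3408 with array weights, and from 2217 to 3456 when a library was left out. Rises then numbered 1227 to 1784 and falls 990 to 1672. A filter at a mean of 1 CPM removed no gene. The authors' deposited table called 3017, of which 2930 were called here in the same direction. The interaction count rose from 1255 to 3073 with array weights and ranged from 517 to 1304 when a library was left out. The count between Rhbdf2-/- and wild-type, 2 genes, was 4 with a pseudocount of 4 CPM, 5 with the 2 groups alone, 5 without trend, 1163 with array weights, 0 with voom, 0 in the authors' deposited table and 2 to 8 when a library was left out. The causes were not tested.

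Of 2392 pairs of a named gene and an alternative, 2340 kept direction and call, 43 lost the call and 4 gained it, and 86 of 98 called genes were called in every alternative. Direction reversed in 5 pairs, none of them called. With a library left out, Tnf ranged from -0.59 to 0.057 (without iR2ko_823), Adam17 from -0.022 (without FcR2bko_595) to 0.17 and Il1b from -0.55 to 0.13 (without iR2ko_823, and 0.080 without FcR2bko_847). Adam17 was at -0.028 with CPM rescaled to the listed genes. No paired analysis was possible because the library numbers of the 2 groups share no value. With 3 libraries per group and bulk RNA, genes near 1 CPM have little weight, and list counts were recomputed only without libraries of the compared groups.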

Other observations

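Several lists moved little. Of 20 genes of cholesterol synthesis and uptake 1 rose, the master regulator Srebf2 (1.13 ± 0.30), and 1 fell, the mevalonate kinase Mvk (-0.57 ± 0.15), but without FcR2bko_847 there were 8 rises and Mvk was not called, and without FcR2bko_875 or iR2ko_592 Srebf2 was not called. The falls numbered 2 without FcR2bko_595. Among 14 genes of the unfolded protein and integrated stress responses Herpud1, a component of protein disposal from the endoplasmic reticulum, rose by 1.498 ± 0.25 and Asns, the asparagine synthetase, fell by 1.82 ± 0.32, and the rises numbered 2 without FcR2bko_595. Of 7 subunits of the phagocyte NADPH oxidase 0 rose and 0 fell by limma, with 1 higher and 1 lower at an unadjusted p below 0.05 and 0 by voom or in the authors' deposited table. Without iR2ko_579 1 of them fell. Of 5 measured EGF receptor family genes Egf alone was called.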
